A study of Caenorhabditis elegans with 12 samples.

Results

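The genes described here are 10 regulators of mRNA translation in the germ line of the nematode Caenorhabditis elegans, taken by name from both deposited gene tables. They are the cytoplasmic polyadenylation element binding (CPEB) genes fog-1, cpb-1, cpb-2 and cpb-3, the Nanos genes nos-2 and nos-3, the DAZ-family gene daz-1, the La-related gene larp-1, the ataxin-2 orthologue atx-2 and the DEAD-box helicase gene laf-1. All 10 were found among the 39665 genes of each table. RNA came from whole adult XX animals grown at 20 °C on OP50 bacteria, either wild-type N2 hermaphrodites or females homozygous for fog-2(q71), of the strain labelled JK574. The mutation removes the F-box protein FOG-2, without which XX animals make no sperm of their own, and the sources used here do not say whether the females had been mated. There were 3 RNA samples per genotype, and cDNA of each was primed once with oligo-dT, a primer for the poly(A) tail, and once with random hexamers, giving 12 libraries in 4 groups of 3. The study set both primings against each other to ask whether FOG-2 affects polyadenylation.

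CPEB proteins bind the 3′ untranslated region (3′ UTR) of mRNAs and, with poly(A) polymerases or deadenylases, lengthen or shorten the tail and so raise or lower translation. Nanos proteins act with RNA-binding proteins of the Pumilio family, and the C. elegans Pumilio proteins FBF-1 and FBF-2 bind both NOS-3 and CPB-1. In hermaphrodites such regulators set the order in which the germ line first makes sperm, in the last larval stage, and then oocytes, so that in adults sperm production is over and oocyte production continues.

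Each table holds 1 value per gene and genotype, in FPKM (fragments scaled to the length of the gene model and the size of the library), which the authors pooled over the 3 libraries of a group. No value per library, spread or read depth was available here, so errors below are those implied by the authors' p-values, namely the size of the log2 fold over the normal deviate that matches p. Oligo-dT gave 16396 tested genes with a median of 4.23 FPKM in N2, and hexamers gave 9855 with a median of 26.2 FPKM. The mutated gene fog-2 was at 64.2 and 14.4 FPKM with oligo-dT, and was called lower by the authors with both primings. Sperm markers, chosen with earlier results of these data known, were lower too: of 45 tested with oligo-dT, 17 were called lower and 0 higher in the authors' deposited table. Their levels summed over 57 listed genes to 192.7 FPKM in N2 and 52.4 FPKM in fog-2 with oligo-dT, and to 90.8 and 46.3 FPKM with hexamers. The oligo-dT sums leave out 3 of these genes, which the authors marked as having too many fragments, so the sums of both primings cover unlike sets. In whole animals, fewer cells of a type and less RNA per cell cannot be told apart.

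None of the 10 regulators was called different between hermaphrodites and females, and for 8 of them the 95% interval implied by the authors' p-value lay within 2-fold with both primings. With a q of up to 0.05 as the threshold, the authors' deposited table (Cuffdiff) called 0 of 10 tested members with oligo-dT, where 1.43% of all tested genes were called (0.335% higher and 1.1% lower in fog-2). With hexamers 0 of 9 tested members were called, against 0.822% of all tested genes (0.538% higher and 0.284% lower). The authors' table gives cpb-2 no test there. Without adjustment, 0 and 0 members had a p under 0.05. The shares of all tested genes were 8.45% with oligo-dT (2.2% higher, 6.25% lower) and 8.97% with hexamers (6.37% higher, 2.6% lower). Against so low a background, 0 calls among 10 genes says little, and the folds with their errors say more.

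The folds of the tested members were small. With oligo-dT the log2 folds of fog-2 over N2 lay between -0.21 (larp-1) and 0.13 (fog-1), with a median of -0.04 beside -0.03 over all tested genes. With hexamers those of the 9 tested members lay between -0.19 (larp-1) and 0.34 (nos-2), with a median of 0.06 beside 0.10 over all tested genes. cpb-2, not tested with hexamers, had a log2 fold of 0.63 there, at 0.235 and 0.362 FPKM. The hexamer median was -0.04 once folds were centred on the median of all tested genes, and -0.02 over the 7 members whose locus holds no other gene model. The median absolute log2 fold was 0.11 with oligo-dT and 0.08 with hexamers, while tested genes of at least 10 FPKM in 1 genotype had 0.12 and 0.17. These absolute folds were not centred, so the hexamer values include the shift of 0.10 over all tested genes. Centred hexamer folds of tested members ran from -0.29 (larp-1) to 0.23 (nos-2).

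**Figure D1:**
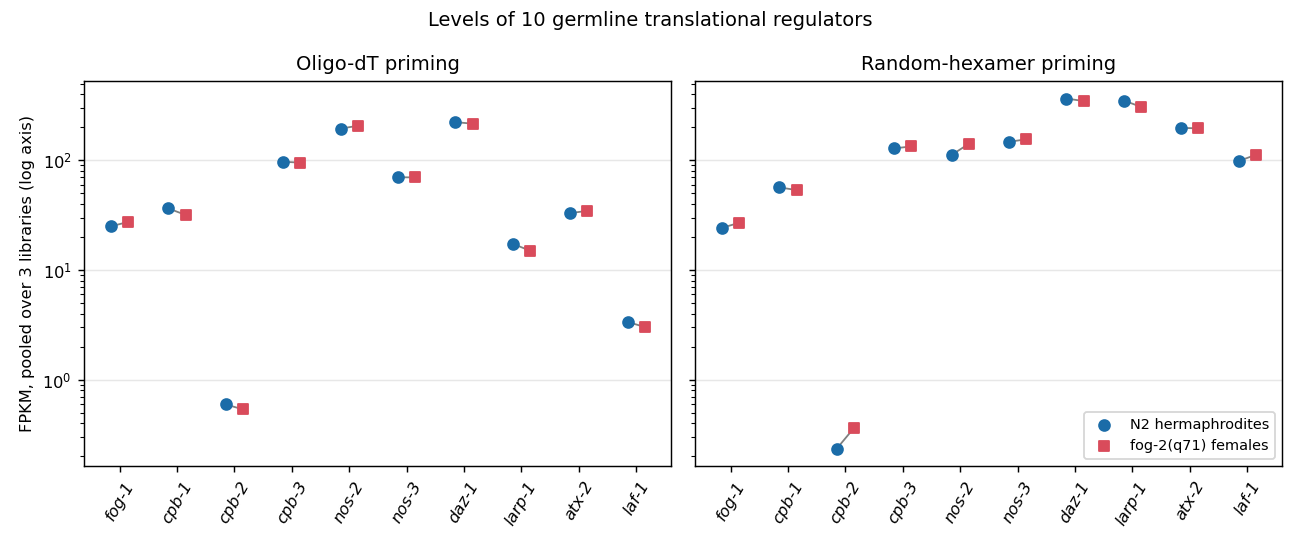
FPKM of each member (log axis) in N2 hermaphrodites (circles) and fog-2(q71) females (squares), each point the authors' pooled value over 3 libraries, with oligo-dT (left) and random hexamers (right). Apart from cpb-2 with hexamers (0.235 and 0.362 FPKM), the pair of points of each gene differs by under 1.5-fold, while levels between genes span from under 1 FPKM (cpb-2) to over 200 FPKM (daz-1).

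fog-1 encodes the CPEB protein that directs germ cells to become sperm, and its mRNA was present in females that make no sperm. It lies on chromosome I, 3211060 to 3217023 (the sources used here do not name the genome build, for this and all positions below). With oligo-dT fog-1 was at 24.98 FPKM in N2 and 27.3 FPKM in fog-2, and with hexamers at 24.2 and 26.9 FPKM. The fold of fog-2 over N2 was 1.10 with oligo-dT (implied 95% interval 0.867 to 1.38, q = 0.923 in the authors' deposited table) and 1.11 with hexamers (0.846 to 1.46, q = 0.999). Neither interval holds a 2-fold change in either direction. Beside these values stand those of fog-3, which encodes a Tob/BTG protein that acts with FOG-1 in the sperm fate decision. With oligo-dT its level was 0.933 FPKM in N2 and 0.248 FPKM in fog-2. The log2 fold was -1.91 (implied standard error 0.75), which was not called in the authors' deposited table (q = 0.299). With hexamers fog-3 was at 0.409 FPKM in N2, listed at 0 in fog-2 and not tested.

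cpb-1 encodes a CPEB protein needed for spermatocytes to go through meiosis. The gene lies on chromosome III, 9322233 to 9324211. In N2 cpb-1 was at 36.3 FPKM with oligo-dT and 56.5 FPKM with hexamers, and in fog-2 at 31.7 and 53.4 FPKM. Its log2 fold was -0.20 with oligo-dT (implied 95% interval -0.50 to 0.11, q = 0.823 in the authors' deposited table) and -0.08 with hexamers (-0.41 to 0.24, q = 0.999). Both values of fog-2 were below those of N2, by less than the implied error allows to be called. The sperm markers whose summed level was lower in fog-2 are of the cell type that CPB-1 and FOG-1 help to make, and the part of sperm cells in the cpb-1 and fog-1 values was not tested.

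cpb-3 and cpb-2 are the remaining CPEB genes, with the highest and the lowest level of the CPEB genes on the list. cpb-3, which encodes a CPEB protein of the oocyte-producing germ line, lies on chromosome I, 5789173 to 5791726. It was at 96.9 and 95.04 FPKM in N2 and fog-2 with oligo-dT and at 128 and 134 FPKM with hexamers. The implied 95% interval of its fold ran from 0.813 to 1.18 with oligo-dT and from 0.841 to 1.29 with hexamers. cpb-2 (chromosome II, 6192900 to 6195103) was at 0.593 and 0.535 FPKM with oligo-dT and at 0.235 and 0.362 FPKM with hexamers. Its log2 fold with oligo-dT was -0.15 with an implied 95% interval from -0.98 to 0.68, which includes a 1.5-fold change in either direction. With N2 at 0.593 FPKM, cpb-2 stood above 20.5% of the genes tested with oligo-dT, and cpb-3 above 88.3%.

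Both Nanos genes on the list were abundant, and neither was called. nos-2 encodes a Nanos protein made from maternal mRNA in the germline founder cell of the embryo, so that its mRNA is stored in oocytes. It was at 194 FPKM in N2 and 206 FPKM in fog-2 with oligo-dT, and at 112 and 141 FPKM with hexamers. The hexamer difference was the largest among the tested members, at a fold of 1.26 (implied 95% interval 0.938 to 1.70, p = 0.125 and q = 0.724 in the authors' deposited table). Of all genes tested with hexamers, 70.5% had a smaller absolute fold than this. nos-2 lies in a locus on chromosome II, 7065076 to 7069924, that it shares with him-14, a meiotic gene of the MutS family. In the WBcel235 annotation nos-2 lies inside him-14 on the opposite strand and overlaps an exon of it, and the sources used here do not say whether the authors' quantification used strand. him-14 was at 26.8 and 28.7 FPKM with oligo-dT and at 20.6 and 20.0 FPKM with hexamers, so it was lower than nos-2 in every group.

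nos-3 encodes the Nanos protein that binds FBF and takes part in the switch from sperm to oocytes. The gene lies on chromosome II, 9746675 to 9749811. It was at 69.9 FPKM in N2 and 69.7 FPKM in fog-2 with oligo-dT, the closest pair among the members, and at 147 and 155 FPKM with hexamers. The implied 95% interval of its fold was 0.822 to 1.21 with oligo-dT and 0.852 to 1.30 with hexamers. The third Nanos gene, nos-1, which is expressed from the zygotic genome in germ cells, is no member of the list. Its levels were 73.7 and 76.04 FPKM with oligo-dT and at 81.3 and 84.2 FPKM with hexamers, with log2 folds of 0.05 and 0.05 (q = 0.998 and 0.999 in the authors' deposited table).

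daz-1 had the highest level of the list in all 4 groups. It encodes the RNA-binding protein of the DAZ (deleted in azoospermia) family, which in C. elegans is needed for meiosis in oogenesis, and lies on chromosome II, 5456317 to 5458127. daz-1 was at 222 FPKM in N2 and 216 FPKM in fog-2 with oligo-dT, above 95.2% and 94.8% of tested genes. With hexamers it was at 365 and 346 FPKM. The folds were 0.969 (implied 95% interval 0.804 to 1.17) and 0.949 (0.769 to 1.17), so that a difference of 1.5-fold is outside both intervals.

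larp-1 encodes a La-related RNA-binding protein that promotes oocyte over sperm fate and is found in cytoplasmic RNA granules. It lies on chromosome III, 5010070 to 5017614. The larp-1 level in N2 and fog-2 was 17.3 and 14.96 FPKM with oligo-dT and 350 and 307 FPKM with hexamers. The folds of 0.864 (implied 95% interval 0.698 to 1.07, q = 0.804 in the authors' deposited table) and 0.876 (0.696 to 1.10, q = 0.874) were the lowest among tested members with each priming. Neither was called.

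atx-2 encodes the orthologue of human ataxin-2, a regulator of translation that in the worm germ line acts with GLD-1 and MEX-3. It lies on chromosome III, 10461292 to 10467315, and was at 32.9 and 34.6 FPKM with oligo-dT and at 197 and 195 FPKM with hexamers. Its log2 folds were 0.07 and -0.02 with implied standard errors of 0.15 and 0.16. laf-1 encodes a DEAD-box RNA helicase of the DDX3 family that is a component of germ granules and affects sex determination. Levels of laf-1 were 3.35 and 3.02 FPKM with oligo-dT and 98.2 and 112 FPKM with hexamers. The tables place it in a locus of 61 gene models on chromosome III, 2418504 to 2779010. The implied standard error of its log2 fold was 2.43 with oligo-dT and 0.53 with hexamers, so the laf-1 folds of 0.901 and 1.14 carry intervals of 0.0330 to 24.6 and of 0.553 to 2.35. For laf-1 these tables do not show whether the level changed.

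**Figure D2:**
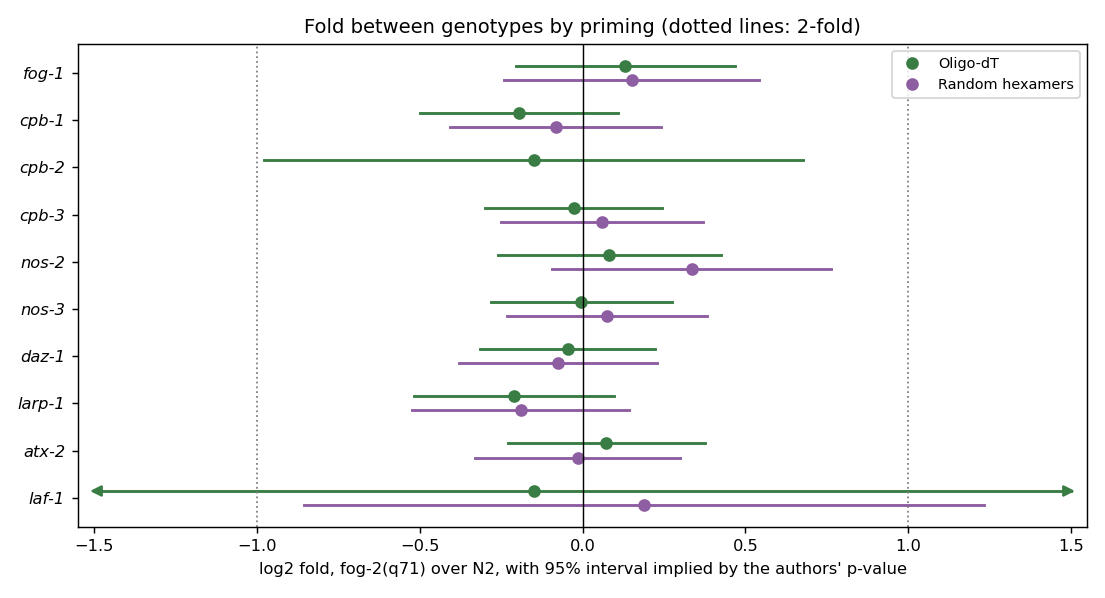
log2 fold of fog-2(q71) females over N2 hermaphrodites for each member with oligo-dT (green) and hexamers (purple), where bars are 95% intervals implied by the authors' p-values and arrows mark bars that go past the axis. Each interval includes 0, and all but those of laf-1 stay within the dotted 2-fold lines; cpb-2 was not tested with hexamers.

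Counted over the list, the implied 95% interval lay within 2-fold for 9 of 10 members with oligo-dT, against 52.9% of tested genes with a finite fold and 85.7% of those with at least 10 FPKM in 1 genotype. With hexamers this held for 8 of 9 members, against 64.1% and 71.5%. The authors' test score gives wider errors than their p-value. With these, which were tried after seeing the data, 8 of 10 and 7 of 9 intervals lay within 2-fold, against 41.1% and 49.8% of tested genes and 81.8% and 62.9% of those with at least 10 FPKM. By the p-value, 8 of 10 and 7 of 9 members lay within 1.5-fold, against 33.8% and 35.5% of tested genes and 68.4% and 44.3% of those with at least 10 FPKM. By the test score 3 and 2 members did, against 2702 of 15892 genes tested with oligo-dT and 10.1% of those tested with hexamers, and 40.5% and 13.5% at that level. The median implied standard error of members was 0.16 with oligo-dT and 0.17 with hexamers, and that of all tested genes 0.32 and 0.25. As 8 of the 10 members had at least 10 FPKM with oligo-dT, the share among genes of that level is the closer comparison, and nothing particular to the members is read from these counts.

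**Figure D3:**
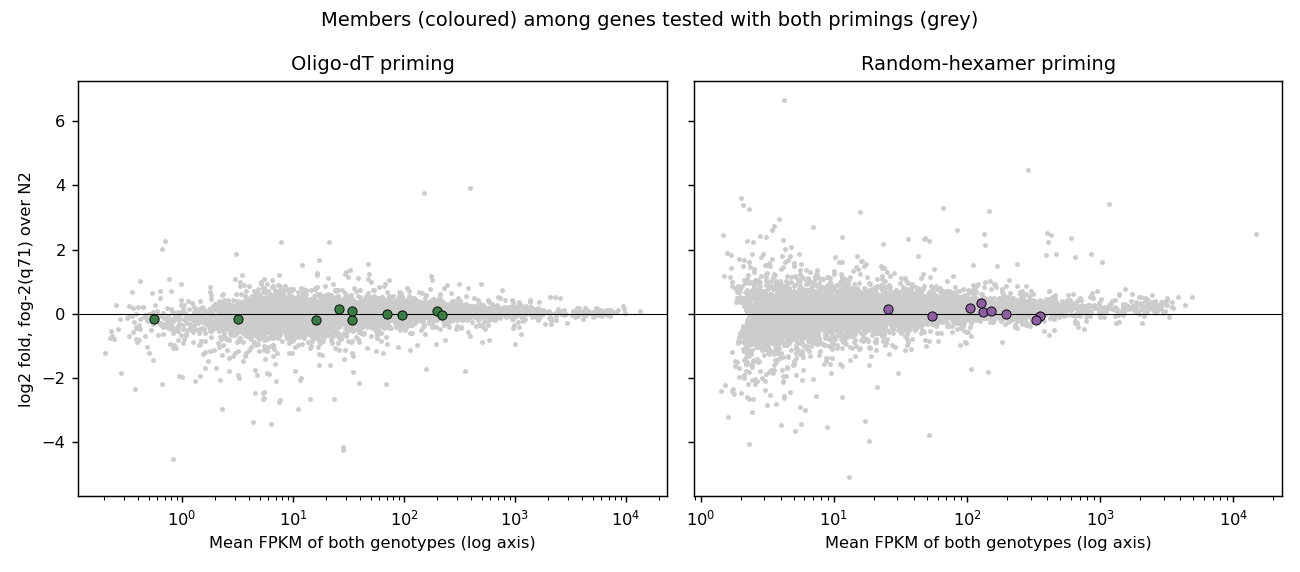
log2 fold of fog-2(q71) over N2 against the mean FPKM of both genotypes (log axis) for genes tested with both primings (grey) and for the tested members (coloured), with oligo-dT (left) and hexamers (right). Members lie in the dense band around 0 at every level, between -0.21 and 0.13 on the left and between -0.19 and 0.34 on the right.

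The study compared both primings to look at polyadenylation, and here the folds of each member with both primings were set against each other. A gene whose mRNA lost its tail in females would have a lower fold with oligo-dT than with hexamers. The difference of log2 folds, oligo-dT minus hexamers and centred on the median of 8593 genes (-0.06), ran from -0.28 in laf-1 to 0.14 in atx-2. By a normal test on the combined implied errors, adjusted over those 8593 genes, 0 of 9 members and 0.0% of all genes were called, and at an unadjusted p under 0.05 the test had 0 members against 1.61% of all genes. As this test called no gene at all, the absence of calls says nothing particular about the members, and the intervals of the differences are given instead. They were -0.50 to 0.39 for cpb-1 and -0.48 to 0.55 for fog-1, and -0.75 to 0.35 for nos-2, whose difference was -0.20. For daz-1 the interval was -0.32 to 0.49. Both primings used the same RNA samples, and the errors were taken as independent.

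The level of members relative to each other differed between primings, and for all but cpb-2 and nos-2 the place of the ratio among all genes was within a few percentage points between genotypes. The tables were normalized separately, so a ratio of hexamer to oligo-dT FPKM is read only against its median over 8593 genes, which was 0.663 in N2 and 0.681 in fog-2. The ratio for laf-1 was 29.3 in N2 and 37.1 in fog-2, that for larp-1 20.2 and 20.5, and that for atx-2 was 5.64 in fog-2, with a log2 ratio of 2.59 in N2 and 2.50 in fog-2. These were above 99.4%, 99.0% and 96.3% of genes in N2. The laf-1 ratio rests on an oligo-dT level of 3.35 FPKM in a locus of 61 gene models. The implied standard error of its log2 fold there was 2.43, so this ratio is uncertain. nos-3, daz-1, cpb-1 and cpb-3 had ratios of 2.11, 1.64, 1.56 and 1.32 in N2. fog-1 was at 0.969 in N2. nos-2 was at 0.574 in N2 and 0.685 in fog-2, above 36.6% and 50.5% of genes. cpb-2, which was not tested with hexamers, was at 0.395 and 0.677, above 7.26% and 49.5%. The order of levels changed with it: larp-1 was the eighth of the 10 members in N2 with oligo-dT and the second with hexamers, while daz-1 was the first with both. Neighbours such as cpb-1 and atx-2 with oligo-dT (36.3 and 32.9 FPKM in N2) or daz-1 and larp-1 with hexamers (365 and 350 FPKM) changed places or stood close, and no spread between libraries was available to part them.

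Members with a high ratio had long transcripts and long 3′ UTRs. In the WBcel235 annotation the longest transcript of larp-1 is 4633 bases, with a 3′ UTR of 1180 bases, that of laf-1 3657 with 1495, and that of atx-2 3613 with 639. At the other end cpb-2 has 1847 bases with a 3′ UTR of 38, and nos-2 has 1242 with 406. Spearman's rho between spliced length and the ratio in N2 was 0.89 over the 10 members and 0.71 over 7217 protein-coding genes. Between 3′ UTR length and the ratio it was 0.93 over the members and 0.61 over 6983 protein-coding genes with an annotated 3′ UTR. In fog-2 the values over members were 0.92 and 0.96. laf-1 and nos-2 share their loci with other gene models, and cpb-2 was not tested with hexamers. Over the 7 members left without these, the rho in N2 was 0.75 for length and 0.82 for 3′ UTR length. These are descriptions: all points share the same libraries, and both lengths go together among members (rho 0.89). Some members also stood high among genes of like length. Among 442 protein-coding genes of at least 4000 bases the median ratio in N2 was 1.69, and larp-1 was above 97.3% of them. daz-1 was above 95.9% of 3057 genes between 1000 and 2000 bases, whereas fog-1 was above 53.7% of its class of 2000 to 3000 bases.

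The gene models behind the FPKM values spanned the coding region without UTRs in most genes. Among 8672 protein-coding genes with a locus of their own and over 50 bases of UTR in WBcel235, the width of the locus in the tables equalled the coding span of the annotation within 3 bases for 89.7% and the whole gene span for 0.0577%. The coding span was matched for 7 of the 8 members that share their locus with no other gene model, among them larp-1 with a locus of 7545 bases against a coding span of 7546 and a gene span of 8726. For nos-3 the locus was 3137 bases and the coding span 3404. Reads from a 3′ UTR would then fall outside the counted model, and its part in the low oligo-dT levels of larp-1, laf-1 and atx-2 was not tested. The folds between genotypes compare values made on the same models within a table.

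**Figure D4:**
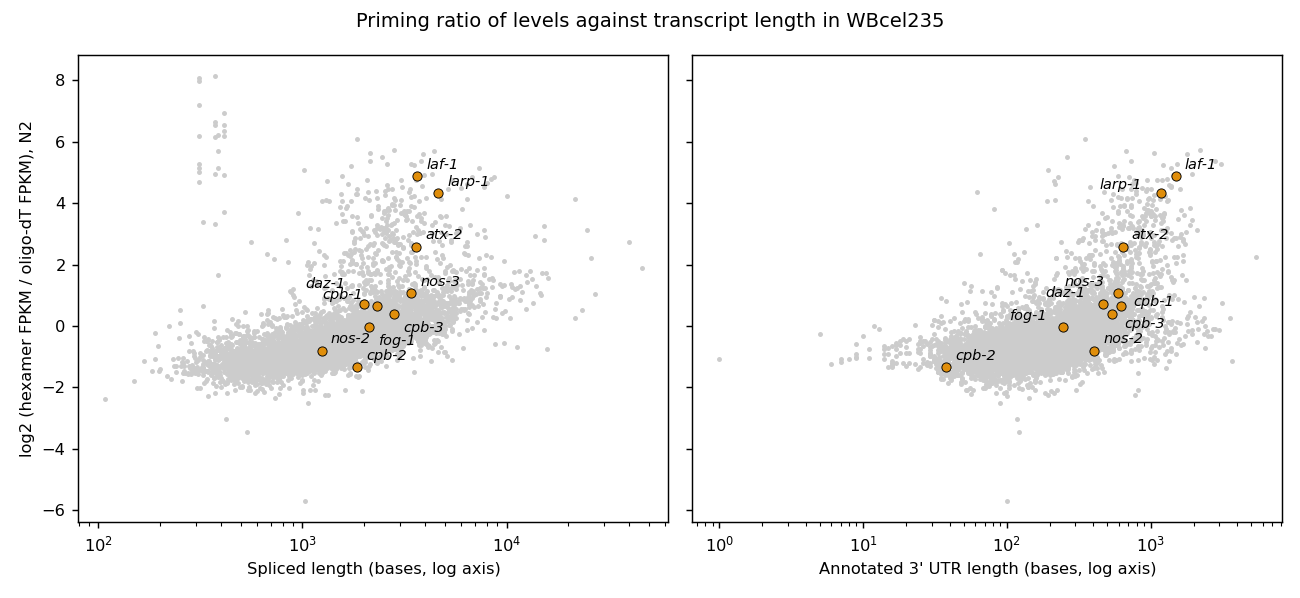
log2 ratio of hexamer to oligo-dT FPKM in N2 against the spliced length (left) and the annotated 3′ UTR length (right) of the longest transcript in WBcel235, both on log axes, for protein-coding genes (grey) and members (orange). larp-1 and laf-1, with 3′ UTRs of 1180 and 1495 bases, have the highest ratios of the members, and cpb-2, with 38 bases, the lowest. The laf-1 value comes from a locus of 61 gene models and is uncertain, and cpb-2 was not tested with hexamers.

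The members share their place in the genome in part: 2 lie on chromosome I, 4 on II and 4 on III, and 0 on IV, V or X. Chromosomes IV, V and X held 14.6%, 23.9% and 17.4% of genes tested with oligo-dT. Among genes tested with hexamers they held 16.6%, 17.4% and 13.6%. No test of this was made.

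Partners and related regulators, listed with earlier results of these data known, gave few calls. Of 10 partners of CPEB, Nanos and Pumilio proteins tested with oligo-dT and 9 with hexamers, 0 were called, with medians of 0.01 and 0.05, and 1 (fog-3) had an unadjusted p under 0.05, with oligo-dT. For gld-1, whose KH-domain protein binds FOG-2 and represses translation, levels were 181 and 155 FPKM with oligo-dT and 838 and 850 FPKM with hexamers. gld-3, which encodes a Bicaudal-C protein that activates the poly(A) polymerase GLD-2, was at 153 and 162 FPKM with oligo-dT and at 234 and 250 FPKM with hexamers. puf-8, a Pumilio-family gene of the sperm-to-oocyte switch, was at 164 and 174 FPKM with oligo-dT and at 134 and 154 FPKM with hexamers. None of these was called in the authors' deposited table.

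Among genes that regulate fog-1 or set germline sex, fog-2 was the sole call with each priming, of 7 tested with each. The fem genes, whose products promote male fate upstream of the fog-1 regulator TRA-1, were not called, with fem-3 at 90.8 and 88.7 FPKM, fem-2 at 75.96 FPKM in N2 (log2 fold 0.02) and fem-1 at 48.1 and 49.7 FPKM with oligo-dT. With hexamers fem-3 was at 41.9 and 45.6 FPKM, fem-2 at 55.1 and 56.6 FPKM and fem-1 at 43.9 and 44.3 FPKM. her-1, which encodes a secreted signal of male fate and is named after its value was seen, had a log2 fold of 1.68 with oligo-dT, with an unadjusted p under 0.05 but no call in the authors' deposited table. It was not tested with hexamers, so no second priming stands beside this fold. tra-1 was marked by the authors as a locus with too many fragments with oligo-dT and has no level there.

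RNA-binding regulators of oocytes and early embryos had a median level of 455 FPKM in N2 with oligo-dT, where that of members was 34.6 FPKM, and 0 calls of 13 tested with oligo-dT and of 14 with hexamers, with 0 at an unadjusted p under 0.05. Their median log2 folds were -0.07 and 0.08. For pos-1, a zinc-finger regulator of maternal mRNAs, levels were 1507 and 1483 FPKM with oligo-dT and 1260 and 1409 FPKM with hexamers. spn-4, an RRM-domain regulator of early embryos, was at 990 and 996 FPKM with oligo-dT and at 989 and 1152 FPKM with hexamers. puf-5, a Pumilio-family gene of late oogenesis, was at 1005 and 900 FPKM with oligo-dT and at 1023 and 958 FPKM with hexamers.

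The general mRNA machinery on which these regulators act held 0 calls as well, and 1 gene (ife-3) at an unadjusted p under 0.05. Of genes for mRNP proteins, helicases and poly(A)-binding proteins 11 were tested with oligo-dT (median -0.01) and 13 with hexamers (median 0.00). For car-1, an Sm-like protein of RNA granules, levels were 1790 and 1782 FPKM with oligo-dT and 2190 and 2088 FPKM with hexamers. The helicase gene cgh-1 had 1734 and 1570 FPKM with oligo-dT and 3390 and 3170 FPKM with hexamers, and pab-1, for the poly(A)-binding protein, was at 953 and 991 FPKM with oligo-dT and at 1052 and 1204 FPKM with hexamers. Cap-binding complex genes had medians of -0.05 over 6 and 0.20 over 7 tested, the latter beside 0.10 over all genes tested with hexamers. The hexamer log2 folds of this list ran from -0.14 in ife-4 to 0.86 in ife-5, with ife-1 at 0.38, and none of these eIF4E genes was called. With oligo-dT the log2 fold was -0.01 for ife-5 and -0.04 for ife-4, and ife-1 was not tested. ife-3, another eIF4E gene, was at 268 and 339 FPKM with hexamers (log2 fold 0.34, p = 0.0432 and q = 0.542 in the authors' deposited table) and at 200 and 190 FPKM with oligo-dT. ifet-1, the eIF4E-binding repressor, was at 303 and 349 FPKM and ifg-1, for eIF4G, at 178 and 179 FPKM with hexamers, and with oligo-dT they were at 71.7 and 69.1 FPKM and at 26.1 and 24.4 FPKM. Deadenylation genes had medians of -0.01 over 6 and 0.03 over 8 tested. Among genes of the CCR4-NOT deadenylase, ntl-4 was at 33.02 and 30.4 FPKM with oligo-dT and 217 and 220 FPKM with hexamers, ntl-2 at 111 and 114 FPKM and 76.7 and 76.2 FPKM, and ccr-4 at 5.68 and 5.86 FPKM and 214 and 250 FPKM.

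**Figure D5:**
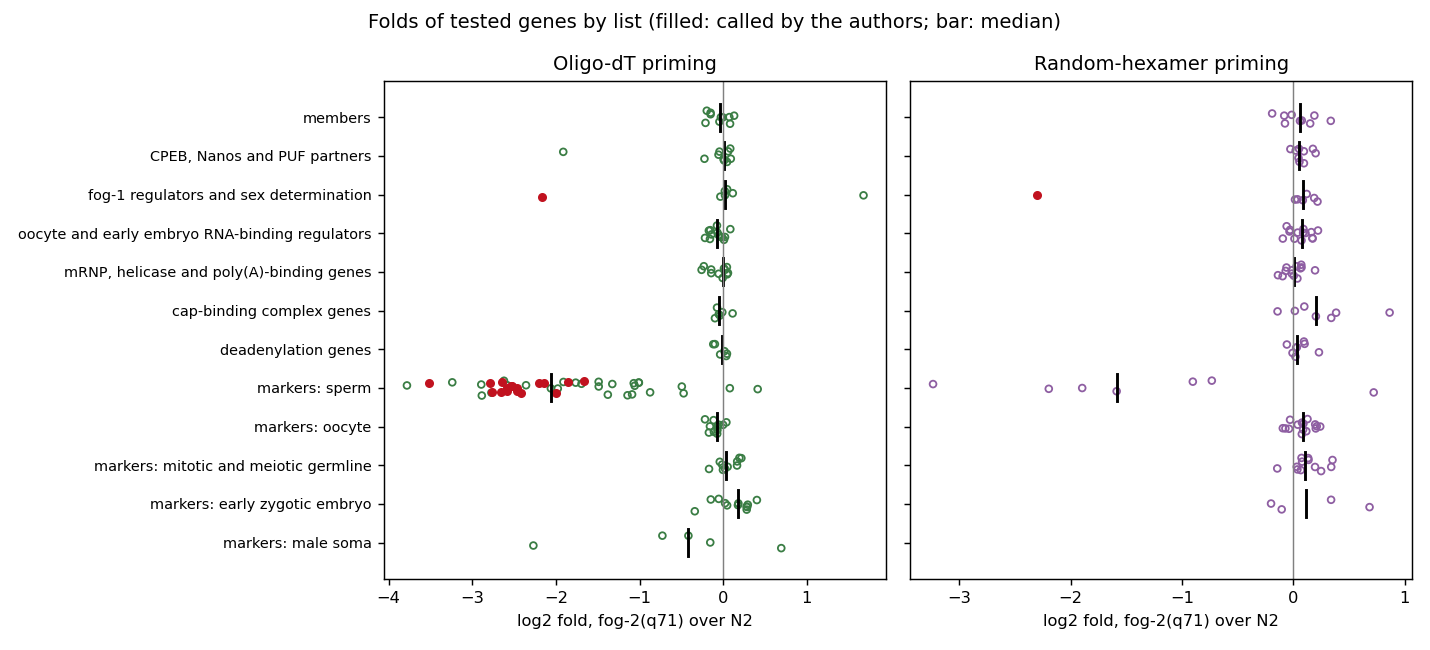
log2 fold of fog-2(q71) over N2 for each tested gene with a finite fold in the members, the related lists and the cell type marker lists, with oligo-dT (left) and hexamers (right), where filled red points are genes the authors called, black bars are medians and vertical scatter is for display. Members, partners and oocyte genes crowd around 0, while sperm markers spread to the left with a median of -2.06 with oligo-dT and -1.59 with hexamers.

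Cell type markers give the setting for these values. Oocyte markers, of which 11 were tested with oligo-dT and 15 with hexamers, had 0 calls and medians of -0.07 and 0.09, with cpg-2 at 2390 and 2280 FPKM, cpg-1 at 1584 and 1507 FPKM and cbd-1 at 863 and 832 FPKM with oligo-dT. Markers of the mitotic and meiotic germ line had 0 calls of 10 and of 12, with medians of 0.04 and 0.11, and sygl-1 was at 378 and 336 FPKM, lst-1 at 196 and 196 FPKM and pgl-1 at 130 and 126 FPKM with oligo-dT. Of these 2 lists 1 gene, pgl-1 with hexamers (154 and 197 FPKM), had an unadjusted p under 0.05 in the authors' deposited table. The 17 called sperm markers with oligo-dT were msp-19, msp-36, msp-40, msp-45, msp-50, msp-51, msp-55, msp-57, msp-59, msp-64, msp-76, msp-78, msp-81, msp-152, ssq-1, ssq-2 and msd-4, with log2 folds from -3.52 in ssq-2 to -1.66 in ssq-1. With hexamers 7 sperm markers were tested and 0 were called, 22 were listed at 0 in fog-2 and 9 in N2, and 1 had an unadjusted p under 0.05. Early zygotic embryo markers, which bear on embryos held inside hermaphrodites, had 0 calls of 12 with oligo-dT at summed levels of 45.1 FPKM in N2 and 54.3 FPKM in fog-2, and 0 of 4 with hexamers, where pes-10 had an unadjusted p under 0.05. Among these markers pes-10 was at 9.88 and 13.1 FPKM, sdz-28 at 15.5 and 19.03 FPKM and sdz-26 at 4.35 and 5.30 FPKM with oligo-dT. Of the 12 tested with oligo-dT, 9 were higher in fog-2 and 3 lower, and of the 4 tested with hexamers 2 and 2. With hexamers the log2 folds were 0.68 for pes-10, -0.10 for sdz-28 and -0.20 for sdz-26. The hexamer sums over the list were 30.8 FPKM in N2 and 31.3 FPKM in fog-2. The oligo-dT sums leave out 3 genes marked as having too many fragments. The locus of sdz-28 holds 7 gene models. Male soma markers had 0 calls of 5 tested with oligo-dT, 0 of them at an unadjusted p under 0.05, and summed to 3.38 and 2.28 FPKM over 9 listed genes with oligo-dT and to 0.589 and 1.35 FPKM with hexamers, where 5 were listed at 0 in each genotype. The part of embryos or males in the members' values was not tested.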

How the data were processed

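RNA was extracted with Trizol and Illumina TotalScript reagents were used for libraries, per the labels' protocols. TopHat, Cuffdiff and Cufflinks 2.1.1 were used per the submitters' processing notes. The genome build was not given in the sources used. The authors deposited, per the file headers, a gene table for each priming with FPKM values pooled over the 3 libraries of a genotype, with Cuffdiff's p-value, q-value and test score. Calls are the authors' own, at q at or under 0.05 among genes with a completed test. Groups follow sample titles: 2 N2 samples carry the strain label N3, and the description of 1 hexamer sample says oligo-dT. Nothing beyond the series design, which calls the samples biological replicates, says how they were grown apart.

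Log2 folds were recomputed here as fog-2 over N2 without a pseudocount (pandas 2.3.3, scipy 1.17.1), because the deposited fold column held spreadsheet errors. No count test was run and depth is unknown. Locus starts were counted from 1, which adds 1 to the printed start, since widths then match the annotation. Lengths came from Ensembl release 115 (WBcel235), matched by gene or sequence name. The place of nos-2 within him-14 is as annotated there. No coordinates were printed from it, since 0 of 8 members with a locus of their own had its start and end. The number of per-sample columns left unused was 0. The authors marked 2306 genes as having too many fragments with oligo-dT, and these have no value here. The members and lists were chosen with earlier results of these data known. All members are named; from each other list, nos-1 and fog-3, called genes and up to 3 genes with the highest mean FPKM among those tested with both primings. Alternatives were other q thresholds, pseudocounts of 0.1 and 1 FPKM, a minimum of 1 FPKM, unshared loci, centring and other errors.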

Additional observations from a re-analysis of the deposited data

How the results depend on the processing

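The count of called members was 0 with q at or under 0.1, a minimum of 1 FPKM, unshared loci and centred folds. The smallest unadjusted p of a member (Cuffdiff) was 0.177 with oligo-dT and 0.125 with hexamers, and a q is never below its p. All of these settings but centring could therefore only give 0. The same holds for a q of 0.01 and for the wider errors from the test score, chosen after seeing the data. Settings that could only give 0 say nothing about stability. For priming differences, where most settings called no gene at all, the setting that made calls was errors multiplied by 0.645: 58 of 8593 genes and 0 members were called, and the smallest adjusted p of a member was 0.879 (nos-2, normal test). Of 83 alternative values, 57 were folds of members, which stayed within the implied error. Alternative medians stayed within the SD over members. The remaining values were counts of members, all 0, which carry no error and say nothing about stability. Signs turned for cpb-3 and nos-3 under centring with both primings and for the hexamer median under centring and over unshared loci, all within 0.08 of 0 on the log2 scale. No paired analysis was possible because the tables hold 1 pooled value per genotype, and for the same reason no library could be left out. Depth is unknown, so low genes such as cpb-2 cannot be judged beyond the authors' errors.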

Other observations

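The locus of 61 gene models that holds laf-1 gave wide errors for its other models too. With oligo-dT 50 of the other 60 gene models were tested and 0 were called, with a median implied standard error of 0.92 against 0.32 over all tested genes. With hexamers 36 were tested and 0 were called, with a median of 1.45 against 0.25. Among the deadenylation genes, ccr-4, which lies in a locus of 3 gene models, had oligo-dT and hexamer levels in N2 of 5.68 and 214 FPKM, a gap like those of larp-1 (17.3 and 350 FPKM) and laf-1 (3.35 and 98.2 FPKM). The tables were normalized separately, and the cause was not tested.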
